A study of Rattus norvegicus with 20 samples.

Results

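The miR-181 family was measured as 7 mature miRNAs, rno-miR-181a-5p, rno-miR-181b-5p, rno-miR-181c-5p, rno-miR-181d-5p, rno-miR-181a-1-3p, rno-miR-181a-2-3p and rno-miR-181c-3p, taken as every sequence that the deposited files assign to one of these names. They were 7 of the 617 miRNAs with reads, and all 7 were detected in each of the 20 libraries. Small RNA was sequenced from the adBNST (bed nucleus of the stria terminalis, anterodorsal subdivision), a forebrain region of the extended amygdala, in Sprague-Dawley rats, with 1 library per rat. After weaning on postnatal day 21, rats lived for 6 weeks either alone (socially isolated, SI) or in groups of 3 littermates of the same sex (group housed, GH, the controls), and each of the 4 combinations of housing and sex had 5 rats. Per the study, the sequenced females were chosen for high RNA integrity and to cover a range of estradiol levels. No such choice is stated for males. Both housing groups were tested on the elevated plus maze, an anxiety test, at 9 weeks of age and killed afterwards, so every library came from a rat that had been through the test. Which GH rats shared a cage or litter was not given in the sources used here, and p-values measure the spread between these rats.

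A miRNA is cut from a hairpin precursor that can release a mature RNA from each arm, 5p and 3p, and the seed, bases 2 to 8 from the 5′ end, largely decides which messenger RNAs it represses. The miR-181 5p RNAs are abundant in brain and lymphocytes, and miR-181a is known in neurons as a repressor of an AMPA receptor subunit. The family is encoded in clusters in which a miR-181a or miR-181c hairpin lies just before a miR-181b or miR-181d hairpin.

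The 4 members of the 5p arm share 1 seed, which no other rat miRNA in the RefSeq table of mature sequences (GRCr8) carried. They are shown because they share the seed and differ only in bases after it, while their amounts moved differently (5′ to 3′, seed in capitals).
rno-miR-181a-5p: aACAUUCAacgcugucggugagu
rno-miR-181b-5p: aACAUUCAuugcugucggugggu
rno-miR-181c-5p: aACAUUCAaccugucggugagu
rno-miR-181d-5p: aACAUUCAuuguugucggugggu
Counting positions from 1 at the 5′ end, rno-miR-181b-5p differed from rno-miR-181a-5p by A9U, C10U and A21G, and rno-miR-181d-5p differed from rno-miR-181b-5p by C12U alone. rno-miR-181c-5p was rno-miR-181a-5p without base 11. In GRCr8, rno-miR-181a-5p lies at chr13:52037081-52037103 and, as an identical copy, at chr3:43025601-43025623, both on the plus strand, so reads could not be given to 1 copy. rno-miR-181b-5p lies at chr13:52037263-52037285, with a further hairpin gene, Mir181b2, on chromosome 3 at 43026666 to 43026753, rno-miR-181c-5p at chr19:40888314-40888335 and rno-miR-181d-5p at chr19:40888484-40888506. The hairpin genes Mir181a-1 and Mir181b1 are 61 bases apart and Mir181c and Mir181d 77 bases apart, whereas Mir181a2 and Mir181b2 on chromosome 3 are 986 bases apart.

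The 3p members carried 2 seeds, 1 of them common to rno-miR-181a-1-3p and rno-miR-181c-3p.
rno-miR-181a-1-3p: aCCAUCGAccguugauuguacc
rno-miR-181c-3p: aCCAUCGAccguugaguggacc
rno-miR-181a-2-3p: aCCACCAAccguugacugu
Only the 3p arms can tell the copies of miR-181a apart. rno-miR-181a-1-3p lies at chr13:52037121-52037142, rno-miR-181a-2-3p at chr3:43025646-43025664 and rno-miR-181c-3p at chr19:40888353-40888374.

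Libraries held 3428930 to 11383055 miRNA reads (median 6705043). Expression is given as counts scaled to 1000000 miRNA reads after TMM adjustment of library sizes (CPM). The library of SI female I16F stood apart: its mean correlation with the other libraries was 0.900, and it held reads of 367 miRNAs, the fewest. SI female libraries held fewer distinct sequences (11399 to 16310) than GH female libraries (17315 to 20913), without overlap. In males these overlapped (13820 to 19215 in SI, 12585 to 23573 in GH). Median miRNA reads were higher in SI, at 6998674 against 5276646 in females and 7290553 against 4983188 in males. The part of this difference in the results below was not tested. The file of SI male I17M carries the name of SI female I17F and the reverse, and both were placed by their labels. Values without I16F, I17M or I17F are given beside some of the results they bear on, not all.

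rno-miR-181a-5p was the main member, at a mean of 7557 CPM and rank 28 of the 500 miRNAs tested. rno-miR-181b-5p followed at 2633 CPM, rno-miR-181d-5p at 302 CPM and rno-miR-181c-5p at 134 CPM. The 3p arms were lower still, at 56.6 CPM for rno-miR-181a-1-3p, 54.7 CPM for rno-miR-181a-2-3p and 28.9 CPM for rno-miR-181c-3p. Over the 20 rats rno-miR-181a-5p lay above rno-miR-181b-5p and rno-miR-181b-5p above the rest without overlap, whereas the ranges of rno-miR-181d-5p and rno-miR-181c-5p overlapped, as did those of rno-miR-181c-5p and the 3p arms. The 5p arms made up 97.8 to 99.2% of the member reads of each library. Among GH males the family took 1.07 to 1.25% of all miRNA reads, and among SI males 0.742 to 1.06%. For females these shares were 0.896 to 2.08% (GH) and 0.705 to 1.05% (SI), so the groups overlapped only in females.

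**Figure D1:**
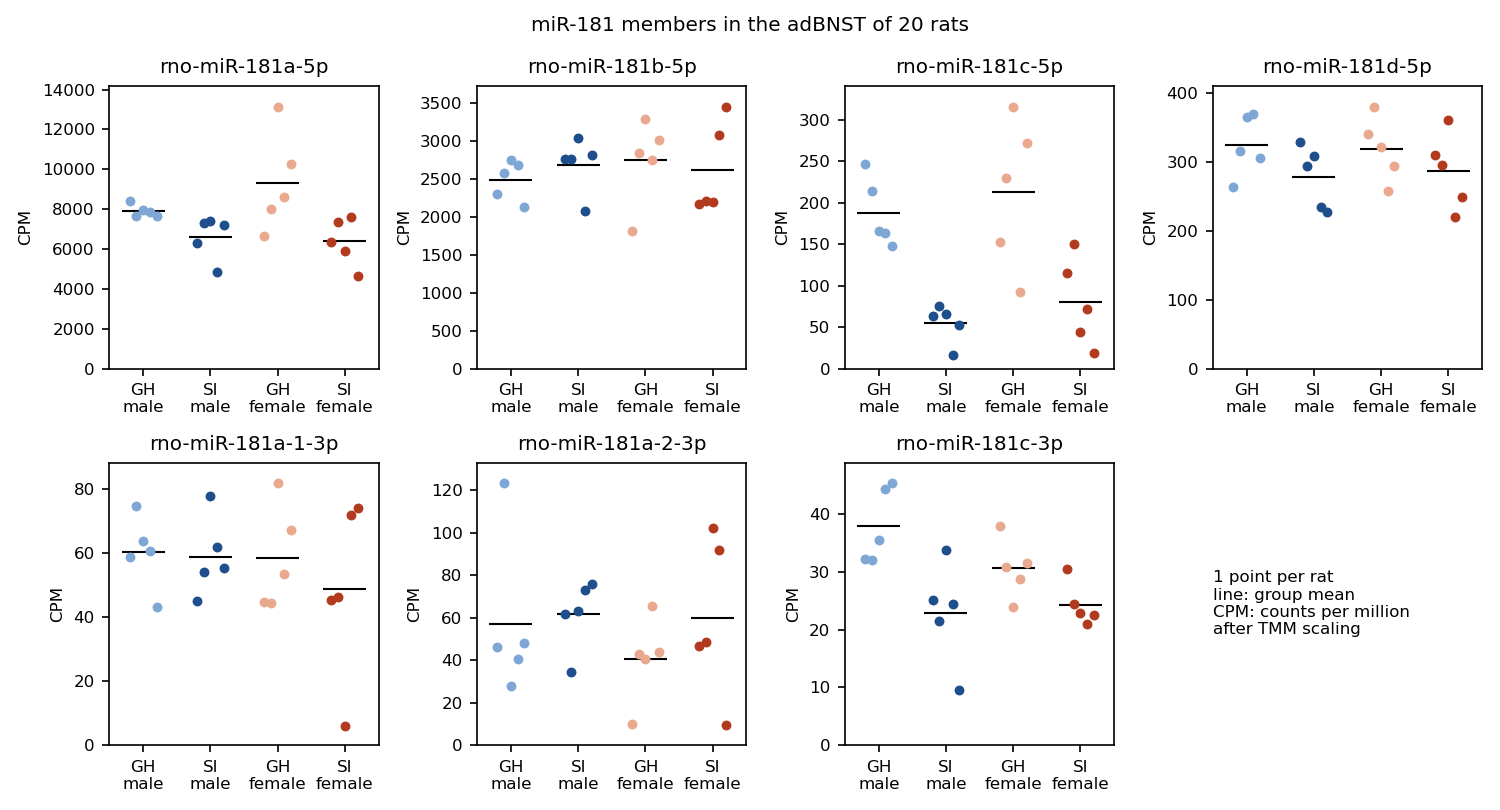
Normalized counts (CPM, linear axis from 0) of the 7 miR-181 members, 1 point per rat, by housing and sex, with a line at each group mean. rno-miR-181c-5p shows all 5 SI males (16.8 to 75.5 CPM) under all 5 GH males (148 to 246 CPM).

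rno-miR-181c-5p, the product of the chromosome 19 hairpin Mir181c, was lower in SI males and in the average over the sexes. GH males had 148, 163, 165, 214 and 246 CPM. SI males had 16.8, 52.8, 63.4, 66.3 and 75.5 CPM, so the groups did not overlap. In females GH rats had 92.4, 153, 229, 272 and 315 CPM and SI rats 18.2, 44.4, 71.7, 116 and 150.2 CPM. SI rats I10F and I14F lay inside the GH range and the other 3 below it. With edgeR's quasi-likelihood test (Benjamini-Hochberg adjustment over 500 miRNAs), rno-miR-181c-5p fell in SI males by 1.77 ± 0.45 on the log2 scale (SE, adjusted p = 0.0233), to 0.293 of the GH level. It was the only member of 7 called in males, where 20 of 500 miRNAs (4%) were called. In females the log2 difference was −1.41 ± 0.45 (edgeR adjusted p = 0.0876; −1.14 and 0.157 without I16F), and 0 of the 7 members were called against 2 of 500 miRNAs (0.4%). Averaged over the sexes it was −1.59 ± 0.32 (edgeR adjusted p = 0.0039), a call that held whichever single rat was left out. The call in males was lost, with edgeR adjusted p between 0.0509 and 0.0625, without any one of G16M, G18M, G19M, I15M, I17M or I20M. Exchanging the I17 libraries gave −1.63 in males (edgeR adjusted p = 0.0580) and −1.57 averaged (edgeR adjusted p = 0.00492), and leaving both out gave −1.57 in males (edgeR adjusted p = 0.0609) and −1.41 averaged (edgeR adjusted p = 0.0170). The depth behind these values is uneven: 124 reads of 1 sequence in I17M and 95 reads of 2 sequences in I16F, against 7 to 19 distinct sequences in the GH rats. In punched tissue, fewer cells of a type and less RNA per cell cannot be told apart.

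rno-miR-181a-5p, the most abundant member, was lower in the average over the sexes, by a smaller factor. GH males had 7653, 7660.1, 7853, 7969 and 8425 CPM and SI males 4851, 6286, 7223, 7287 and 7419 CPM, all SI values lying below all GH values with I17M the lowest. GH females had 6642, 7991, 8594, 10276 and 13128 CPM and SI females 4651, 5903, 6350.1, 7354 and 7626 CPM. Here 3 of 5 SI females lay below every GH female. Averaged over the sexes, rno-miR-181a-5p fell by 0.40 ± 0.13 on the log2 scale (edgeR adjusted p = 0.0407), to 0.756 of the GH level. Members called in this average were rno-miR-181a-5p and rno-miR-181c-5p, 2 of 7, against 88 of 500 miRNAs (17.6%). The sexes taken singly gave log2 differences of −0.26 ± 0.19 in males (edgeR adjusted p = 0.459) and −0.55 ± 0.19 in females (edgeR adjusted p = 0.107). The averaged call was lost in 12 of the 20 fits that left out 1 rat (G16M, G18M, G19M, G20M, G21M, I15M, I17M, G16F, G17F, I14F, I16F or I17F), at edgeR adjusted p of 0.0515 to 0.0899. It was kept with the I17 libraries exchanged (edgeR adjusted p = 0.0346) and lost with both left out (edgeR adjusted p = 0.122). rno-miR-181a-5p and rno-miR-181c-5p were 2 of 7 members with every SI male below every GH male, as were 46 of 500 miRNAs (9.2%), and no member had every SI female below every GH female, as 8 of 500 miRNAs (1.6%) had.

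rno-miR-181b-5p, cut from the same clusters as rno-miR-181a-5p, did not pass the test in any comparison. GH males had 2122, 2297, 2574, 2680.4 and 2750.2 CPM and SI males 2075, 2756, 2761, 2806 and 3029.5 CPM. Except for I17M, every SI male was above every GH male. GH females had 1817, 2752, 2836, 3015 and 3290.0 CPM and SI females 2169, 2187, 2209.6, 3079 and 3445 CPM, and these ranges overlapped. The averaged log2 difference was 0.02 ± 0.13 (edgeR adjusted p = 0.954). rno-miR-181d-5p, cut from the same cluster as rno-miR-181c-5p, had 263, 305, 316, 366 and 369 CPM in GH males, 227, 234, 293, 309 and 329 CPM in SI males, 258, 294, 322, 340.1 and 379.6 CPM in GH females and 219, 248, 295, 310.1 and 360.0 CPM in SI females. Its groups overlapped in both sexes, and the averaged log2 difference was −0.19 ± 0.14 (edgeR adjusted p = 0.382).

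Of the 3p arms, rno-miR-181c-3p had 32, 32.1, 35.6, 44.3 and 45.3 CPM in GH males and 9.46, 21.5, 24.4, 25.1 and 33.8 CPM in SI males. Only I22M among the SI males reached the GH range. GH females had 23.9, 28.7, 30.8, 31.5 and 38.0 CPM and SI females 21.0, 22.5, 22.9, 24.4 and 30.5 CPM. The averaged log2 difference was −0.53 ± 0.25 (edgeR adjusted p = 0.142). rno-miR-181a-1-3p ranged from 43.1 to 74.7 CPM in GH males, 45.0 to 78.0 CPM in SI males, 44.5 to 81.9 CPM in GH females and 6.00 to 74.1 CPM in SI females. rno-miR-181a-2-3p ranged from 27.9 to 123, 34.3 to 76.0, 9.71 to 65.3 and 9.60 to 102 CPM in the same order. Their averaged log2 differences were −0.15 (edgeR adjusted p = 0.795) and 0.34 (edgeR adjusted p = 0.583), with 42 reads of rno-miR-181a-1-3p in I17F and 50 of rno-miR-181a-2-3p in I16F.

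The median log2 difference over the 7 members was −0.22 in males, −0.26 in females and −0.19 averaged, beside −0.013, −0.13 and −0.0046 over the 500 miRNAs tested. The 92 other tested miRNAs in the G and C content range of the 5p members had a median averaged difference of −0.26. DESeq2, the tool named in the study's methods and used here as an alternative, called rno-miR-181c-5p in males (adjusted p = 0.000961), where it called 9.4% of the 500 miRNAs. In females it called rno-miR-181c-5p (DESeq2 adjusted p = 0.0165) and rno-miR-181a-5p (DESeq2 adjusted p = 0.0334) among 13.2% of miRNAs. In the average it called those and rno-miR-181c-3p (DESeq2 adjusted p = 0.0416) among 25.2%. No member was called by edgeR for an interaction of housing and sex, where 0.4% of miRNAs were called. For rno-miR-181c-5p that interaction was 0.36 ± 0.62 on the log2 scale (edgeR adjusted p = 0.947), and for rno-miR-181a-5p −0.29 ± 0.27 (edgeR adjusted p = 0.870). Between GH females and GH males edgeR called no member and 0% of miRNAs (12 miRNAs had an unadjusted p under 0.05, and DESeq2 called 3).

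**Figure D2:**
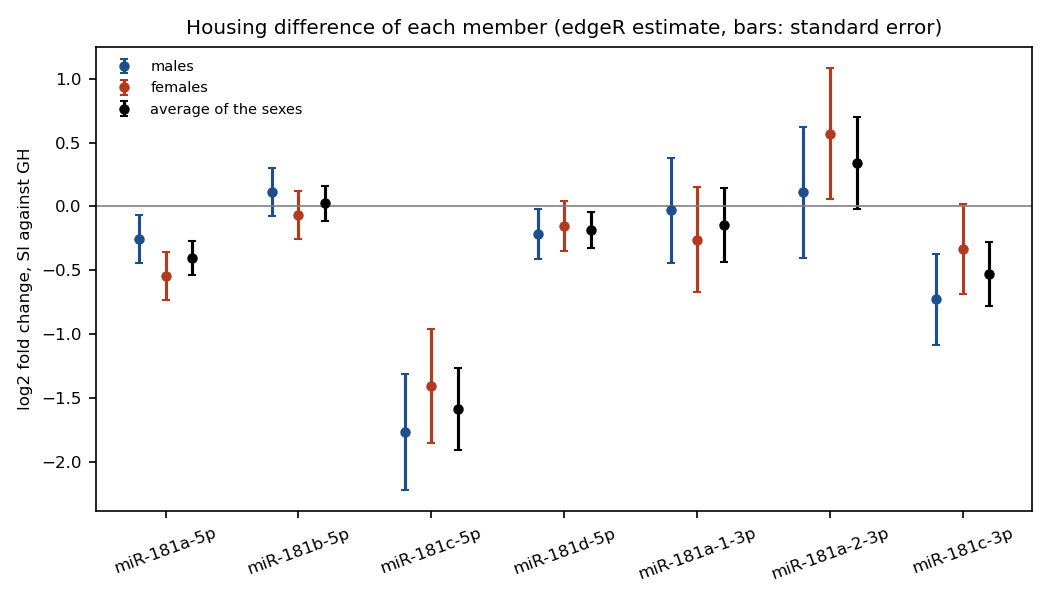
Log2 differences (SI minus GH) of the 7 members from edgeR in males, females and averaged over the sexes, with standard errors. In the average rno-miR-181c-5p lies farthest from 0, at −1.59, and rno-miR-181b-5p lies nearest to 0, at 0.02.

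The balance among members was tested on 5 ratios within each library, in which the scaling of library sizes cancels. The log2 ratio of rno-miR-181c-5p to rno-miR-181d-5p, cut from hairpins 77 bases apart, was −1.18, −1.14, −1.04, −0.56 and −0.10 in GH males and −3.80, −2.38, −2.22, −2.10 and −1.96 in SI males. GH females had −1.48, −1.15, −0.73, −0.11 and −0.03 and SI females −3.76, −3.02, −1.61, −1.42 and −0.97. Males did not overlap, and in females they did. The mean difference within sex was −1.57 (exact permutation test within sex, two-sided, adjusted p = 0.00063 over 5 ratios), and it was −1.37 without I16F and −1.41 without I17M, both still called.

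The log2 ratio of rno-miR-181b-5p to rno-miR-181a-5p was −1.87, −1.85, −1.57, −1.55 and −1.53 in GH males and −1.40, −1.36, −1.29, −1.23 and −1.19 in SI males, every SI male being above every GH male. In females it was −2.0, −1.87, −1.77, −1.64 and −1.49 for GH and −1.73, −1.55, −1.43, −1.31 and −0.43 for SI, I16F having the highest value. The mean difference was 0.42 (exact permutation adjusted p = 0.000735), 0.38 in males (exact p = 0.00794, the smallest that 5 against 5 allows) and 0.46 in females (exact p = 0.0556). Leaving out each rat in turn, I16F and I17M included, moved the mean difference between 0.32 and 0.48 and kept the call. The ratio of rno-miR-181c-5p to rno-miR-181a-5p differed by −1.36 (exact permutation adjusted p = 0.00063). The called ratios with rno-miR-181c-5p contain its lower counts and are not separate from its fall given above. Ratios of other miRNA pairs were not tested. Mean differences of 0.21 for rno-miR-181d-5p to rno-miR-181a-5p (exact permutation adjusted p = 0.265) and −0.66 for rno-miR-181a-1-3p to rno-miR-181a-2-3p (exact permutation adjusted p = 0.328) did not pass the test, although the latter was −1.07 without I16F (exact permutation adjusted p = 0.0484). As shares of all 5p reads of the family, rno-miR-181b-5p made up 22.8 ± 1.98% in GH males and 28 ± 1.13% in SI males, and rno-miR-181c-5p 1.71 ± 0.350% and 0.551 ± 0.194% (SD, n = 5).

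**Figure D3:**
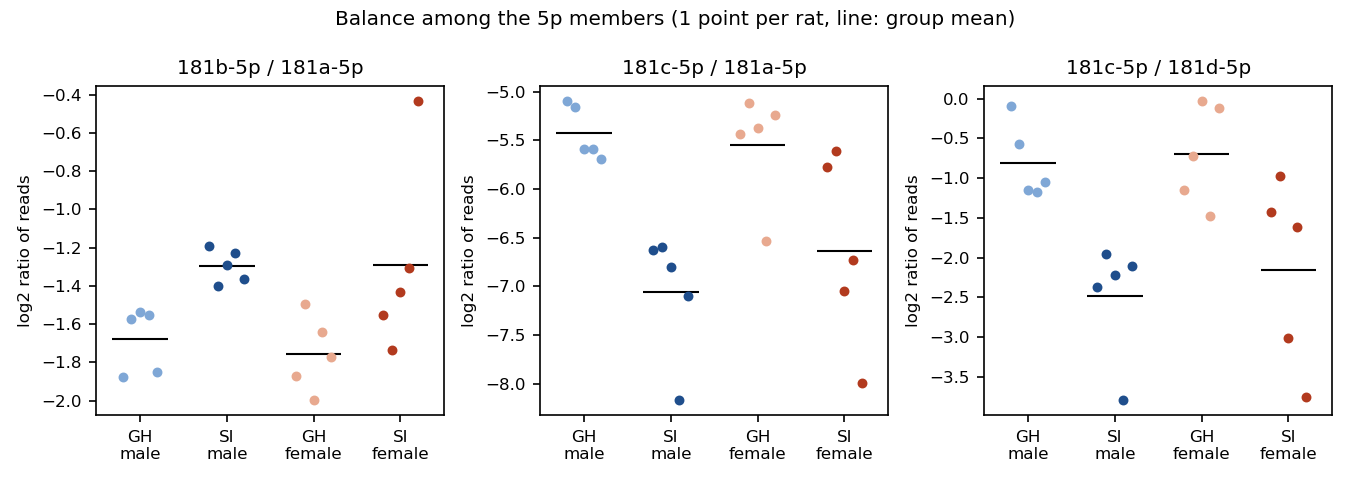
Log2 ratios of reads between 5p members within each library, 1 point per rat, with a line at each group mean. For rno-miR-181c-5p to rno-miR-181d-5p, SI males (−3.80 to −1.96) lie under GH males (−1.18 to −0.10).

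The 5p and 3p arms were compared in the same way in 3 ratios. Only rno-miR-181c-5p to rno-miR-181c-3p compares the arms of 1 hairpin. Reads of rno-miR-181a-5p could come from Mir181a-1 or Mir181a2, so its ratios are not the arm balance of either hairpin. The log2 ratio of rno-miR-181c-5p to rno-miR-181c-3p differed by −1.19, SI minus GH, and was thus lower in SI rats (exact permutation adjusted p = 0.0226 over 3 ratios). Without GH female G16F the adjusted p of that exact test was 0.0526. The difference was −0.97 without I17M and −0.97 without I16F, both still called. This ratio was 1.71 to 2.93 in GH males and −0.54 to 2.47 in SI males (exact permutation p = 0.0714). In females it was 1.68 to 3.72 for GH and −0.30 to 2.62 for SI (exact permutation p = 0.0556). The housing groups thus overlapped in both sexes. The ratio contains the lower counts of rno-miR-181c-5p and is not separate from their fall. rno-miR-181a-5p to rno-miR-181a-2-3p differed by −0.74 (exact permutation adjusted p = 0.115) and rno-miR-181a-5p to rno-miR-181a-1-3p by −0.07 (exact permutation adjusted p = 0.888). Without I16F the former was −0.97 (exact permutation adjusted p = 0.0240), and without I17F the latter was −0.39 (exact permutation adjusted p = 0.0374).

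Each member was a mixture of isomiRs, sequence forms that differ mostly at the 3′ end. The leading forms are shown because the shares of the reference form and of shortened forms differed between housing groups. As read from DNA copies (T for U, seed in capitals), the leading forms of rno-miR-181a-5p were the form without its last 2 bases (35.0% of its reads), the reference form (23%), the form without the last base (15.2%), the form in which an added A follows the loss of the last base (9.52%) and the form without its last 3 bases (8.59%).
rno-miR-181a-5p 21 bases: aACATTCAacgctgtcggtga
rno-miR-181a-5p reference: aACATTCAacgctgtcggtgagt
rno-miR-181a-5p 22 bases: aACATTCAacgctgtcggtgag
rno-miR-181a-5p with added A: aACATTCAacgctgtcggtgaga
rno-miR-181a-5p 20 bases: aACATTCAacgctgtcggtg
rno-miR-181c-5p reads were 33.9% reference and 33.2% a form with 1 further T. rno-miR-181a-2-3p read mostly as a form 3 bases longer than its reference entry (62.5%).
rno-miR-181c-5p with T: aACATTCAacctgtcggtgagtt
rno-miR-181a-2-3p with ACC: aCCACCAAccgttgactgtacc

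In SI rats a smaller share of rno-miR-181a-5p, rno-miR-181b-5p and rno-miR-181d-5p reads were the reference form. These were the 3 members with at least 100 reads in every library, and 6 classes of form were tested in each. For rno-miR-181a-5p the reference share was 22.2, 23.2, 25.3, 25.6 and 27.1% in GH males and 15.5, 16.1, 16.4, 19.1 and 20.6% in SI males, without overlap. In females it was 24.3, 25.4, 25.6, 29.8 and 32.4% for GH and 16.6, 19.6, 21.6, 23.3 and 24.8% for SI, only I10F reaching the GH range. The mean difference was −6.71 percentage points (exact permutation test within sex, two-sided, p = 6.3e-05).

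For rno-miR-181b-5p the reference share was 21.2, 21.9, 26.6, 27.2 and 28.5% in GH males and 15.1, 18, 19.8, 20.9 and 21.4% in SI males. GH females had 26.9, 27.0, 27.4, 27.9 and 32.2% and SI females 19.2, 21.0, 22.8, 23 and 25.6%. Only I20M reached the GH range of its sex, and the mean difference was −6.00 points (exact permutation p = 6.3e-05). For rno-miR-181d-5p the shares were 27.4, 30.0, 34.2, 41.2 and 42.8% in GH males, 20.1, 21.9, 22.4, 28.2 and 30.4% in SI males, 29.1, 36.4, 36.9, 37.1 and 39.3% in GH females and 21.4, 23.1, 29.1, 30.6 and 30.8% in SI females. They overlapped in both sexes, and the mean difference was −9.65 points (exact permutation p = 0.00063). Without I16F the differences were −6.14, −5.83 and −8.95 points for rno-miR-181a-5p, rno-miR-181b-5p and rno-miR-181d-5p, and without I17M −6.46, −5.50 and −9.31 points, all still called. The total of rno-miR-181b-5p and of rno-miR-181d-5p was not called, so in those members the mixture was called and the amount was not.

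**Figure D4:**
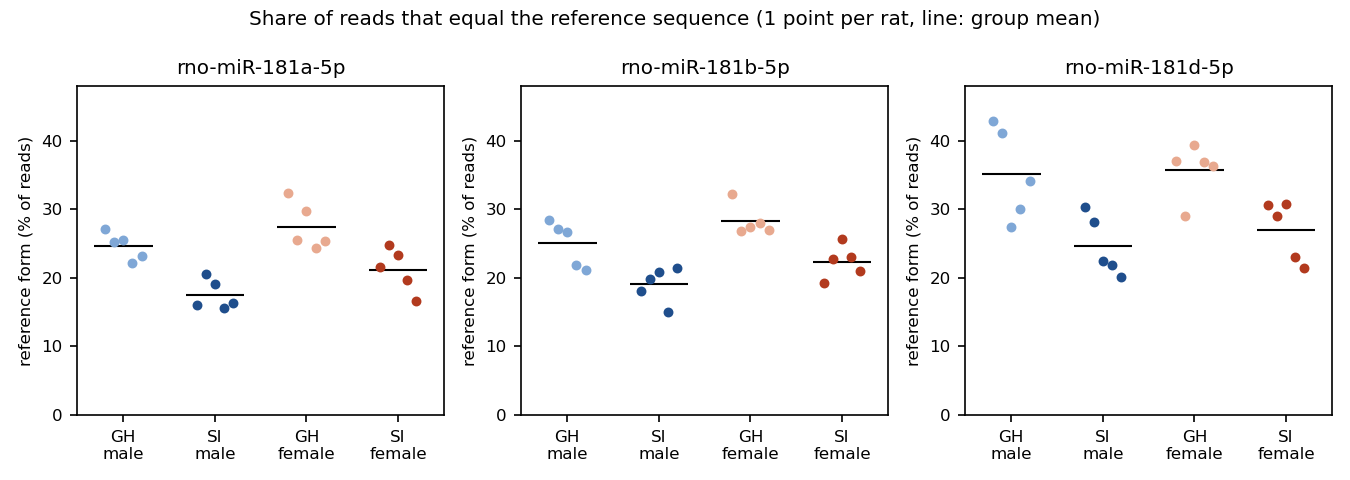
Share of reads that equal the reference form (percent of the member's reads), 1 point per rat, for rno-miR-181a-5p, rno-miR-181b-5p and rno-miR-181d-5p, with a line at each group mean. In rno-miR-181a-5p SI males (15.5 to 20.6%) lie under GH males (22.2 to 27.1%).

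Other classes of form were also called, and no test compared the members with one another. In rno-miR-181a-5p the shortened forms made up 56.4 ± 2.56% in GH males and 64.0 ± 2.38% in SI males, and 54.7 ± 3.80% and 61.8 ± 3.45% in females (SD, n = 5), a mean difference of 7.35 points. Of its templated reads, 37.7 ± 2.11% in GH males and 45.6 ± 1.87% in SI males were 21 bases long, a description with no test. In rno-miR-181d-5p the forms with added bases, mostly A, made up 19 ± 3.41% in GH males and 25.8 ± 5.64% in SI males, and 21.9 ± 4.02% and 29.6 ± 4.13% in females, a mean difference of 7.28 points. The form with added bases differed by 3.54 points in rno-miR-181b-5p (exact permutation p = 0.00372) and the extended form by −0.975 points in rno-miR-181a-5p (exact permutation p = 0.0086). Of 18 tests 7 had an adjusted p under 0.05. The classes of a member together make up all its reads, so a fall in its reference share raises other shares. Calls within the same member are therefore not separate results.

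To read these shares against other miRNAs, the same exact tests were run in all 232 miRNAs with 100 reads in every library, a comparison added after seeing the data. Adjusted over those 1392 tests, 5 of the 7 calls held: the reference shares of rno-miR-181a-5p and rno-miR-181b-5p (exact permutation adjusted p = 0.0125 each) and of rno-miR-181d-5p (0.0336), the shortened share of rno-miR-181a-5p (0.0125) and the added share of rno-miR-181d-5p (0.0336). The added share of rno-miR-181b-5p (exact permutation adjusted p = 0.0862) and the extended share of rno-miR-181a-5p (exact permutation adjusted p = 0.124) did not pass. A lower reference share in SI was called in 12 of 232 miRNAs (5.17%), among them these 3 of 3 tested members. Over the 232 miRNAs the median difference was −0.317 points, and the members ranked 6, 16 and 22 from the lowest. The other 9 were miR-22-3p, miR-16-5p, miR-370-3p, miR-99a-5p, let-7i-5p, miR-27a-3p, miR-30d-5p, miR-375-3p and miR-99b-3p. A higher shortened share in SI was called in 7 of 232 miRNAs, among them rno-miR-181a-5p. For a higher added share in SI the count was 5 of 232, among them rno-miR-181d-5p.

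**Figure D5:**
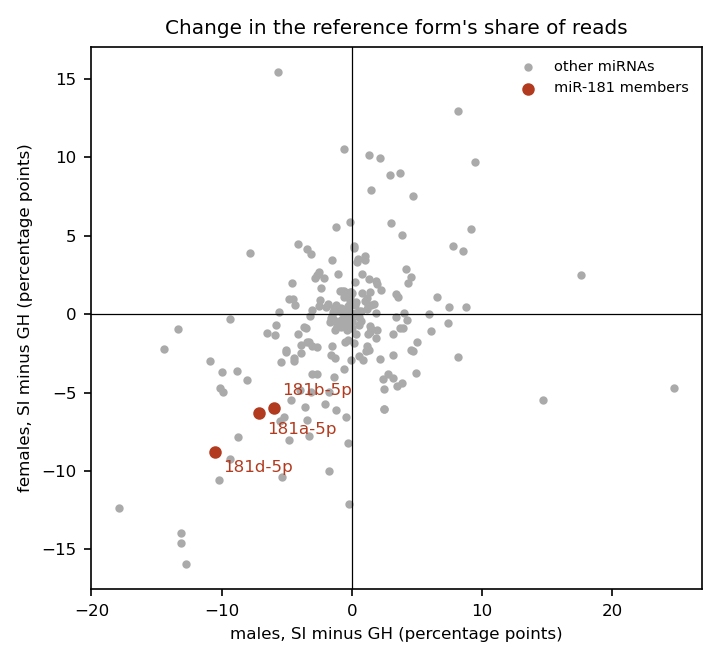
Difference in reference share (SI minus GH, percentage points) in males (x axis) and females (y axis) of the 232 miRNAs with enough reads, 1 point per miRNA. The 3 members, marked, lie below 0 on both axes, with averages of −9.65, −6.71 and −6.00 points against a median of −0.317.

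Counting each form as a feature of its own, edgeR called 2 of the 170 member isomiRs tested in the average over the sexes, where 26 of 10290 isomiRs (0.253%) were called. Both were forms of rno-miR-181a-5p and both fell. The reference form had 2069 ± 168 CPM in GH males, 1120 ± 313 CPM in SI males, 2918 ± 1268 CPM in GH females and 1321 ± 493 CPM in SI females (SD, n = 5). It fell by 1.01 ± 0.20 on the log2 scale (edgeR adjusted p = 0.0466), whereas the 21-base form gave −0.37 ± 0.17 (edgeR adjusted p = 0.316). The other called form, in which an added C follows the loss of the last base, fell by 1.96 ± 0.40 (edgeR adjusted p = 0.0490) and rests on 360 reads in all. No member isomiR was called in males (0.00972% of isomiRs) or in females (0%, with 949 isomiRs at an unadjusted p under 0.05 by edgeR and 104 called by DESeq2), while DESeq2 called 3 member isomiRs in males (1.53% of all isomiRs), 6 in females (1.01%) and 11 in the average (4.1%). The 2 calls rest on nearly every rat: the count fell in 17 of the 20 fits that left out 1 rat and ranged from 0 to 7. The median averaged log2 difference was −0.87 over the 74 tested isomiRs of rno-miR-181a-5p, −1.71 over the 7 of rno-miR-181c-5p, 0.10 over the 53 of rno-miR-181b-5p and −0.22 over the 20 of rno-miR-181d-5p.

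From rat to rat within groups, rno-miR-181a-5p and rno-miR-181c-5p varied together, although they come from different chromosomes. After subtracting group means from log2 CPM, Pearson's r over the 20 rats was 0.743 (permutation p = 0.0002, adjusted p = 0.001 over 5 pairs) and Spearman's rho 0.755 (permutation p = 0.00018, adjusted p = 0.0009). Pearson's r was 0.803 without G15F and G16F, the 2 rats farthest from the median of rno-miR-181a-5p, 0.888 within males and 0.692 within females. For this pair no r was computed without both I16F and I17M, each the lowest of its group for rno-miR-181a-5p and rno-miR-181c-5p. The cluster neighbours rno-miR-181a-5p and rno-miR-181b-5p gave r = 0.423 (permutation adjusted p = 0.160), and rno-miR-181c-5p and rno-miR-181d-5p r = 0.307 (permutation adjusted p = 0.311). For the former pair r was 0.734 within males, 0.323 within females and 0.108 without G15F and G16F. For the latter it was 0.325 within males, 0.302 within females and 0.105 without I16F and I17M. The arms rno-miR-181c-5p and rno-miR-181c-3p gave r = −0.0065 (permutation adjusted p = 0.978).

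By the same measure, log2 CPM minus the group mean over the 20 rats, the miRNAs most like rno-miR-181a-5p were miR-21-5p (r = 0.924), miR-16-5p (r = 0.889) and miR-369-5p (r = 0.820). Those most like rno-miR-181c-5p were miR-335 (r = 0.896), miR-15a-5p (r = 0.886) and miR-16-5p (r = 0.884). For rno-miR-181b-5p they were miR-338-5p (r = 0.774), miR-219a-2-3p (r = 0.715) and miR-185-5p (r = 0.708). For rno-miR-181d-5p they were miR-130a-3p (r = 0.659), miR-7a-5p (r = 0.636) and miR-344b-5p (r = 0.622). The median r over all tested miRNAs outside the family was 0.144 for rno-miR-181a-5p and 0.152 for rno-miR-181c-5p. It was −0.058 for rno-miR-181b-5p and 0.094 for rno-miR-181d-5p. These are descriptions, and the values of a library share its scaling.

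Marker calls in the average are read beside the 88 of 500 miRNAs (17.6%) that edgeR called there. Of the markers of blood vessels, 1 of 2 endothelial and 1 of 2 mural cell markers were called lower in the average. The 2 endothelial markers summed to 880.5 to 1231 CPM in GH males, 259 to 698 CPM in SI males, 947 to 2234 CPM in GH females and 79.9 to 1096 CPM in SI females, and miR-126a-3p fell by 1.11 (edgeR adjusted p = 0.0108 in the average), while miR-126a-5p gave −0.63 (edgeR adjusted p = 0.398). The 2 mural cell markers summed to 9402 to 14298, 4050 to 6530, 9930 to 19740 and 2050 to 13774 CPM in the same order, and miR-143-3p fell by 0.99 in the average (edgeR adjusted p = 0.0059) and by 1.15 in males (edgeR adjusted p = 0.0450). miR-145-5p gave −0.63 in the average (edgeR adjusted p = 0.113). Neither sum overlapped between GH and SI males, and both overlapped in females. Of single miRNAs, 46 of 500 (9.2%) had every SI male below every GH male. Of 3 oligodendrocyte markers miR-338-3p, at a mean of 70.3 CPM, fell by 1.74 (edgeR adjusted p = 0.0162), while miR-219a-2-3p, at 3895 CPM the most abundant, gave 0.30 (edgeR adjusted p = 0.305). Of 4 red blood cell markers miR-486, at a mean of 1633 CPM, rose by 0.92 (edgeR adjusted p = 0.0039). The others were scarce: miR-451-5p, at 8.28 CPM, gave 0.09 in the average (edgeR adjusted p = 0.966). miR-144-3p, at 1.76 CPM, gave 1.03 (edgeR adjusted p = 0.641) and miR-144-5p, at 2.42 CPM, 1.31 (edgeR adjusted p = 0.506). None of 3 neuronal, 5 microglial or 4 choroid plexus markers was called by edgeR. Choroid plexus markers summed to 851 to 2452 CPM in GH males and 1075 to 18201 CPM in SI males (median 1293). In females they summed to 1219 to 5233 CPM for GH and 860 to 4070 CPM for SI. Microglial markers summed to 495 to 782 CPM in GH males and 569 to 918 CPM in SI males. In females their sum was 667 to 1329 CPM for GH and 526 to 1025 CPM for SI. Oligodendrocyte markers summed to 2527 to 4990.1, 3274 to 6379, 2783 to 4856 and 2558 to 6828 CPM in the same order, and red blood cell markers to 1007 to 1359, 1493 to 3117, 795 to 1456 and 1422 to 4036 CPM. The neuronal markers, which are not particular to the adBNST, were present throughout, at 41794 to 93990 CPM in sum. So was miR-9a-5p, another neural miRNA, at 40577 to 94984 CPM (0.09 in the average, edgeR adjusted p = 0.727). The part of these cells in the miR-181 differences was not tested. Among 13 miRNAs known from synaptic plasticity, edgeR called 2 higher and 1 lower in the average, against 17.6% of all miRNAs tested. The higher were miR-134-5p (0.59 on the log2 scale) and miR-485-3p (0.79), and the lower was miR-212-3p (−0.44). In males 1 was called higher (miR-34a-5p by 1.52), against 4%. The median log2 difference over the 13 was −0.08 in the average and 0.05 in males.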

How the data were processed

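Small-RNA libraries of 20 rats were made from 215 ng of Trizol-extracted total RNA of adBNST punches with 22 PCR cycles (NEXTflex kit). Per the labels and the study's methods, the authors trimmed adapters with cutadapt, assigned reads to miRBase 21 with seqbuster within bcbio-nextgen, aligned reads to the rat genome with STAR, and checked quality with FastQC among other tools. The deposited files hold, per library, each distinct sequence with its raw read count, assigned miRNA, mismatch, added bases and 5′ and 3′ changes, and list sequences with at least 2 reads. PCR copies were not collapsed by molecular identifiers.

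Here counts were summed per miRNA name. A feature had to reach 10 counts in 5 of the 20 libraries. The 500 miRNAs and 10290 isomiRs that did were fitted with edgeR 4.0.16 (TMM, quasi-likelihood, 4 groups of 5 in 1 fit, R 4.3.3), with contrasts SI minus GH in each sex, their average, their interaction, and GH females minus GH males. Alternatives were DESeq2 1.42.0, limma 3.58.1 (voom with sample weights), other filters, a replicate block and leaving out each rat. CPM are counts scaled to 1000000 reads of the TMM-adjusted library. Ratios used log2 of summed counts plus 0.5. Shares and ratios were tested by exact permutation of housing within sex (63504 assignments), and correlations by 100000 permutations (scipy 1.17.1). A share was the percent of a member's reads in 1 of 6 classes (reference, 3′ shortened, 3′ extended, 3′ added, 5′ changed, mismatch). A call is an adjusted p under 0.05. Scripts were tested on simulated data. Reads that the files assign to several miRNAs were kept, at most 0.164% of rno-miR-181a-5p, 0.541% of rno-miR-181b-5p and 2.55% of rno-miR-181d-5p reads in any library, and none of the other members. Coordinates and mature sequences are RefSeq's on GRCr8, and all 7 members matched by name. The files' own alignments used an older build, from which no coordinate is given.

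The members and lists were chosen with earlier results of these data known. Named miRNAs are the 7 members, the 3 most correlated miRNAs per 5p member and the called members of the marker and plasticity lists. Chosen after their values were seen were the 9 other miRNAs with a lower reference share, the uncalled markers named beside called ones, miR-9a-5p and the further arms of the family. The tests of shares in all miRNAs and the descriptions of tails, length and base composition were chosen after seeing the data. The listed name rno-miR-9-5p matched no row, since the files use rno-miR-9a-5p, so it is in no list total and its values are given apart.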

Additional observations from a re-analysis of the deposited data

Results flagged for a closer look

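In 11 of 132 groups of 5 rats checked, 1 rat lay far from the other 4 relative to the group's range (Dixon's criterion at the 95% level, which chance passes in about 1 group in 20). SI male I17M was that rat in 4 of them. Its log2(CPM + 1) was 11.02 for rno-miR-181b-5p (next lowest SI male 11.43) and 4.16 for rno-miR-181c-5p (next 5.75), its log2 ratio of rno-miR-181c-5p to rno-miR-181d-5p was −3.80 (next −2.38), and 3.05% of its rno-miR-181a-5p reads had a changed 5′ end (next highest 1.54%). Its file carries the name of a female rat, as the file of I17F carries that of a male.

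The 3p arms of miR-181a gave 3 such cases. rno-miR-181a-1-3p was at 2.81 on the log2(CPM + 1) scale in SI female I17F (next lowest 5.54), rno-miR-181a-2-3p at 5.14 in SI male I19M (next lowest 5.97) and at 3.42 in GH female G15F (next lowest 5.37).

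The remaining cases were the log2 ratio of rno-miR-181c-5p to rno-miR-181a-5p in GH female G13F, −6.54 (next −5.44), the reference share of rno-miR-181b-5p in GH female G15F, 32.2% (next 27.9%), the reference share of rno-miR-181d-5p in GH female G12F, 29.1% (next 36.4%), and the shortened share of rno-miR-181d-5p in SI male I22M, 37.5% (next 29.3%).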

How the results depend on the processing

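No called value changed sign, whereas 18 of 67 values did so in some alternative, all uncalled there and as reported, such as rno-miR-181a-2-3p in males (0.11, from −0.51 to 0.60) and rno-miR-181b-5p averaged (0.02, from −0.04 to 0.08). Of the members, 1 was called in males, 0 in females and 2 in the average. In males the call was lost (0) with both I17 libraries left out, with the I17 labels exchanged, and with the rats that share numbers fitted with or without a replicate block. Leaving out 1 rat gave 0 to 1. In females 2 were called with at least 10 counts in every library, 2 by DESeq2, 2 by DESeq2 with I17 exchanged, 1 by DESeq2 without I16F and 1 over the rats that share numbers without a block. Leaving out 1 rat gave 0 to 1, the 1 being rno-miR-181c-5p without I10F. In the average 1 was called with both I17 left out, 1 by voom, 1 over the rats that share numbers and 0 with the replicate block, and 1 to 2 leaving out 1 rat. The DESeq2 fits with I17 exchanged or without I16F and the fit without both I17 libraries were chosen after seeing the data.

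The numbers share no stated litter or batch. Same-numbered rats correlated at −0.40 to 0.10 in their deviations from group means, and 1 of 6 females correlated best with its own number. The block could be fitted to 10 rats.

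For member isomiRs, DESeq2 called 3 in males, 6 in females and 11 in the average against 0, 0 and 2, beside 157, 104 and 422 of all 10290 isomiRs. In the average the filter on every library gave 8 (301 of 2405 isomiRs), exchanging I17 gave 0, and leaving out 1 rat 0 to 7, fewer than 2 in 17 of 20 fits. The 3 called ratios kept their calls in every alternative run, and the 7 called class shares in all but the adjustment over all miRNAs, which left 5. The arm ratio calls ranged from 0 (without G16F) to 2 (without G19M, I16F or I17F). Interaction and GH sex comparisons called 0 members in all 31 alternatives. rno-miR-181c-5p and the 3p arms rest on few distinct sequences per library, which limits their precision.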

Other observations

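Added bases differed between members. Pooled over the 20 libraries, tails of A alone made up 10.8% of rno-miR-181a-5p reads, 20.2% of rno-miR-181b-5p, 6.74% of rno-miR-181c-5p, 17.9% of rno-miR-181d-5p and 19.5% of rno-miR-181c-3p reads. They made up 5.31% of rno-miR-181a-1-3p and 2.49% of rno-miR-181a-2-3p reads. Tails of T alone made up 11.5% of rno-miR-181a-2-3p, 8.15% of rno-miR-181a-1-3p and 11.8% of rno-miR-181c-3p reads, and 3.19% of rno-miR-181d-5p, 2.01% of rno-miR-181b-5p, 0.592% of rno-miR-181a-5p and 0.0309% of rno-miR-181c-5p reads. In rno-miR-181d-5p the mean share with A alone was 14.9% in GH males, 21.0% in SI males, 15.1% in GH females and 22.1% in SI females.

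Further arms of the family that are not among the 7 members were near the limit of detection. rno-miR-181b-1-3p had 0 to 78 reads and was found in 13 libraries, rno-miR-181b-2-3p had 0 to 9 reads in 4 libraries, and rno-miR-181d-3p 0 to 40 reads in 5 libraries.

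Base composition of the 5p members was alike, at 47.8% G and C in rno-miR-181a-5p and rno-miR-181b-5p, 45.5% in rno-miR-181c-5p and 43.5% in rno-miR-181d-5p. The 92 other tested miRNAs in that range had a median averaged log2 difference of −0.26. Across the 454 of 500 miRNAs with a sequence the correlation of G and C content with the averaged log2 difference was 0.18, a description across miRNAs, which are not independent replicates.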
